A study of Mus musculus with 2 samples.

Results

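The nuclear-encoded genes of the mitochondrial respiratory chain were described in heart cells of mice, as raw UMI counts by complex and by cell type. Members were the rows of the deposited gene list whose symbol starts with Nduf, Uqcr, Atp5, Sdha, Sdhb, Sdhc, Sdhd, Cox4, Cox5, Cox6, Cox7 or Cox8, without symbols containing -ps and without genes under 20 UMIs over both libraries. The rule took 104 of 55357 rows, and 98 passed the minimum. The 6 left out were Ndufb4c with 6 UMIs, Ndufs6b with 4, Ndufa11b with 2, and Cox6c2, Cox8c and Ndufb11b with 0. Of the 98 members, 37 belonged to complex I, 4 to complex II, 8 to complex III, 19 to complex IV and 18 to complex V. The remaining 12, named Ndufaf or Sdhaf, are assembly factors and not subunits, so the name of the set covered 86 of its members.

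The respiratory chain sits in the inner mitochondrial membrane and passes electrons from NADH and succinate to oxygen. Complexes I and II feed electrons in, complex III hands them to cytochrome c, complex IV reduces oxygen, and complex V, the ATP synthase, uses the proton gradient to make ATP. Most subunits are encoded in the nucleus, a small set in the mitochondrial genome, and several complex IV subunits exist as heart and muscle forms and as forms found in most tissues. Cardiomyocytes are among the cells richest in mitochondria.

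The study dissociated hearts of C57BL/6 mice into single cells and made 1 library per condition with the 10x Chromium 3-prime kit. TAC mice were males operated at 8 weeks of age, whose aortic arch was narrowed with a suture for 6 weeks. Sham mice had the same operation without the constriction, and their label gave neither age nor sex. Each library pooled the cells of 3 to 5 hearts, so no value below has a replicate library and no test between conditions was made. Intervals are exact and give 95% confidence for counting error alone, and UMIs of cells from pooled hearts are not independent animals.

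The Sham library held 9935 barcodes and 28146691 UMIs, and the TAC library 9932 barcodes and 29108986 UMIs, with a median per barcode of 1964 and 2143 UMIs. Removing called doublets left 9475 and 9452 cells. In both libraries 32 barcode sequences occurred, and leaving them out moved no summed level beyond its counting interval. Each library was clustered without the members and without mitochondrial-encoded genes, and clusters were named from fixed markers. Cardiomyocytes (2511 Sham and 2396 TAC cells) carried 6 to 8 of their markers in each cluster, among them Myh6, Tnnt2, Ryr2 and Ttn. The other large types were fibroblasts (2296 and 2127), endothelial cells (1904 and 2253), macrophages (1412 and 1324) and pericytes (1065 and 1043). The natriuretic peptide genes, which are known to be raised in pressure-loaded hearts, went the other way in cardiomyocytes: Nppa was at 15.6 CPM (UMIs per 1000000 UMIs of the cell type) in the library labelled Sham and 11.7 in the library labelled TAC, and Nppb at 38.1 and 29.4. Other genes known from pressure-loaded hearts were seen among the leading genes of TAC clusters and of no Sham cluster: Ankrd1 led a cardiomyocyte cluster (1101 cells), and Cilp, Ltbp2 and Postn led a fibroblast cluster (75 cells). A leading gene was ranked against the other clusters of its own library, and levels of these genes were not compared between the libraries. The 2 libraries are called Sham and TAC as labelled, and every direction below rests on those labels.

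RNA of cardiomyocyte genes was counted in the other types of both libraries, and free RNA was not itself measured. The cardiomyocyte genes Myh6 and Tnnt2 were found in the 4 other large types at 2.97% to 7.79% of their cardiomyocyte level, and Actc1 and Myl2 at 13.2% to 27.9%. The members together stood in those types at 43.4% to 58.9% of the cardiomyocyte level. Levels of members in the other types can therefore include an unknown share of cardiomyocyte RNA, whose part in each value was not tested beyond the scaled subtraction given for the sums in the closing section.

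The sequences upstream of the genes are given before their levels. RefSeq promoters (GRCm38.p6, from 250 bases before to 50 bases after the start) were matched for 81 member symbols. They were searched on both strands for short letter strings of factors known to act on mitochondrial genes. The string GCGCATGCG of nuclear respiratory factor NRF1 was found in 10 of them (12.3%, against 1.95% of 27025 promoters in all), and CCGGAAG of the ETS family, to which GABP belongs, in 22 (27.2%, against 9.93%). AAGATGGC of YY1 was found in 11 (13.6%, against 3.19%) and TCAAGGTCA of the oestrogen-related receptors in 2 (2.47%, against 0.466%). At least 1 of the 4 strings was present in 38 of the 81, or 46.9%, against 14.5% of all. A match is a description of letters and not of binding.

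The 150 bases before the start are printed for 5 members, chosen to show 1 example of 3 of the strings, a second gene with the ETS string, and the muscle form Cox8b, whose printed bases held none. Capitals mark the matched letters. Ndufaf4 (chr4:24897933-24898082, plus strand), the member with the highest cardiomyocyte level of the assembly factors, holds the NRF1 string 113 bases before the start, and the next base makes the match a palindrome read on both strands. Sdhd (chr9:50603850-50603999, minus strand), a membrane anchor of complex II, and Cox6b1 (chr7:30626115-30626264, minus strand), a complex IV subunit, hold the ETS string on the opposite strand, 46 and 28 bases before the start. Atp5g3 (chr2:73911327-73911476, minus strand), which encodes a c subunit of the ATP synthase ring, holds the receptor string on the opposite strand 52 bases before the start. Cox8b lies at chr7:140900447-140900596, minus strand.
Ndufaf4: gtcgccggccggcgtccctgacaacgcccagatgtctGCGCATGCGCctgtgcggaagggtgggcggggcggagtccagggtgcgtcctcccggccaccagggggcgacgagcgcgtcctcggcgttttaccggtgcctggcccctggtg
Sdhd: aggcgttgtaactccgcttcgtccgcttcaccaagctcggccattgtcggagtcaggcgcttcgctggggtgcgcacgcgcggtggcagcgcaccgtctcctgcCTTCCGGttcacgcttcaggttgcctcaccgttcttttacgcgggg
Cox6b1: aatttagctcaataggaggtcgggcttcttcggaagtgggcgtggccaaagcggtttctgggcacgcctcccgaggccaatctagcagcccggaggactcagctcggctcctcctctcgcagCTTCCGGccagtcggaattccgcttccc
Atp5g3: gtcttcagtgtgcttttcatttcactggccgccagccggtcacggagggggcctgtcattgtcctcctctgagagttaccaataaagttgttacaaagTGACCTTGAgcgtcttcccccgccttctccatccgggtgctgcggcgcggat
Cox8b: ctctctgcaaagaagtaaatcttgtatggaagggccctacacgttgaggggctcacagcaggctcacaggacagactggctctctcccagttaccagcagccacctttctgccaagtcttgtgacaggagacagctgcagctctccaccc

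Which cell types carried the members was compared first. Summed over the 98 genes, cardiomyocytes held 5541 CPM (74730 UMIs) in Sham and 6397 (83904 UMIs) in TAC. Pericytes held 3226 and 3770, endothelial cells 3130 and 3594, macrophages 2823 and 3665, and fibroblasts 2406 and 3003. Cardiomyocytes were highest in each library, and fibroblasts lowest. Against the 4 other large types pooled, the cardiomyocyte level was 2.01-fold (interval 1.98 to 2.04) in Sham and 1.88-fold (1.86 to 1.91) in TAC.

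Every complex had this direction. In Sham the fold of cardiomyocytes over the other types was 1.79 for complex I, 2.39 for complex II, 2.07 for complex III, 2.19 for complex IV and 2.09 for complex V, and in TAC it was 1.71, 2.54, 2.06, 2.03 and 1.77. Without the long Atp5o identifier, which is treated below, complex V stood at 2.41 (2.34 to 2.47) in Sham and 2.39 (2.33 to 2.45) in TAC. Complex I had the lowest fold in each library with or without it. Complex II, the succinate dehydrogenase that also works in the citrate cycle, had the highest with that identifier counted, while without it the intervals of complexes II and V overlapped in both libraries. The mitochondrial-encoded genes, which include the ribosomal RNAs, had the opposite order. They made up 2600 CPM in Sham cardiomyocytes against 9598 in the other types, and 1450 against 8694 in TAC. These are shares of the counted UMIs and not amounts per cell, and the part of nuclear RNA in this order was not tested.

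**Figure D1:**
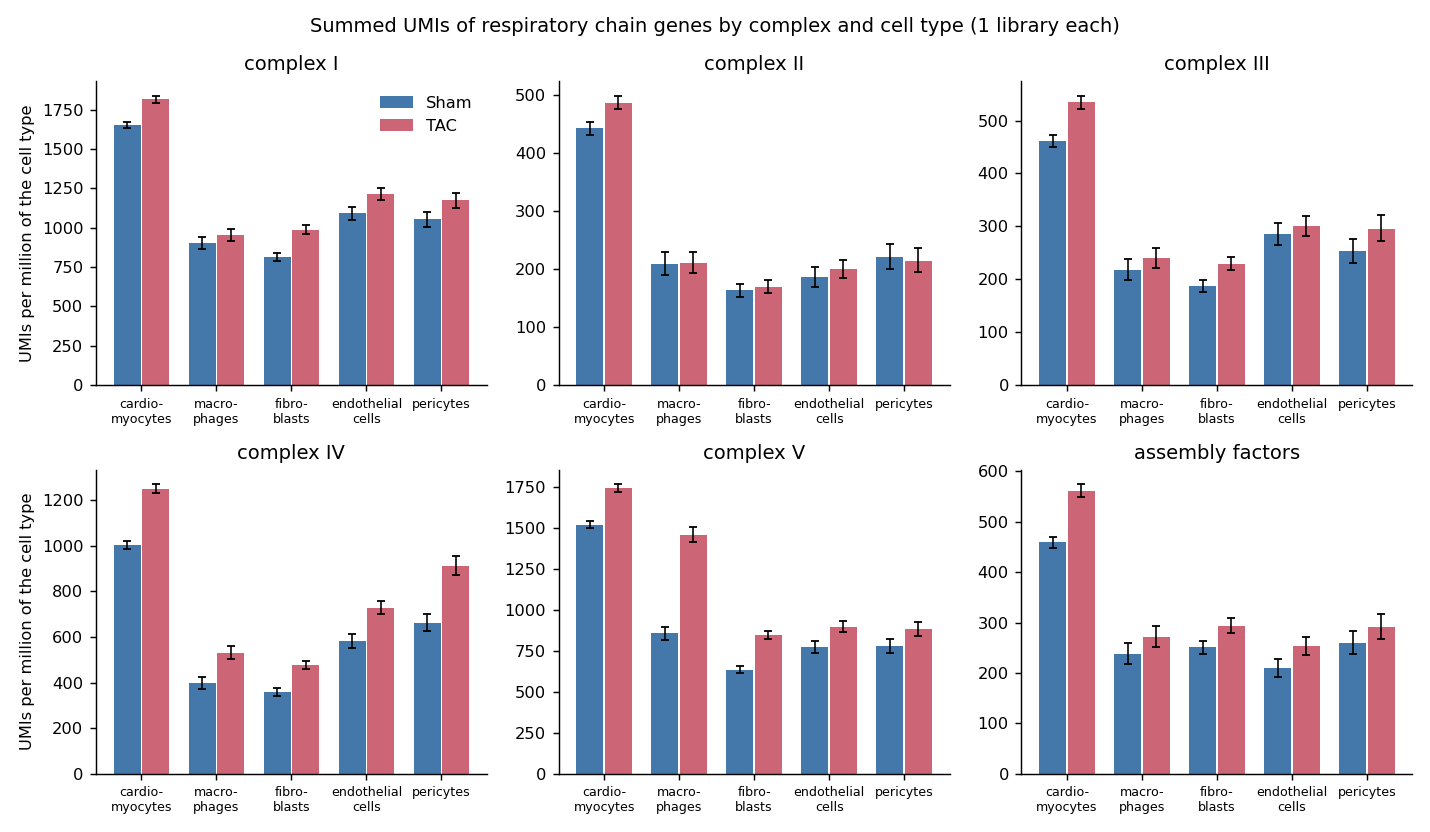
Summed CPM (vertical axis, from 0) for each complex and the assembly factors in 5 cell types, with 1 bar for Sham and 1 for TAC and bars of error showing exact 95% counting intervals. Cardiomyocytes are highest in every panel, and the macrophage bar of complex V in TAC stands well above that in Sham, with 67.1% of the macrophage difference in all members lying in 1 gene identifier of Atp5o.

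Gene by gene, a member was called higher or lower at a fold of 1.5 where it had at least 100 UMIs over the types compared. In Sham 65 of 95 members (68.4%) were called higher in cardiomyocytes, where 19.4% of all 12976 genes were, and 6 were called lower, against 53.5% of all genes. In TAC 55 of 95 (57.9%) were called higher against 18.8%, and 6 lower against 54.1%. The median member fold was 1.83 in Sham and 1.81 in TAC, and the median over all genes 0.619 and 0.610. Of the 98 members, 67 had their highest level in cardiomyocytes in both libraries and 22 in another large type in both. The same counts over all genes are not given here.

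The largest cardiomyocyte fold among members with many UMIs was that of Ndufaf4, an assembly factor of complex I. It stood at 271 CPM in Sham cardiomyocytes against 46.0 in the other types, a fold of 5.88 (5.38 to 6.45), and at 358 against 58.3 in TAC, a fold of 6.15 (5.69 to 6.65). Cox7b, a small complex IV subunit, followed with 186 against 42.3 in Sham and 238 against 49.1 in TAC. Cox8b, the heart and muscle form of subunit 8, had a fold of 4.33 (3.71 to 5.06) in Sham and 3.14 (2.78 to 3.56) in TAC.
Cox7b2, a relative of Cox7b on chromosome 5, was seen almost only in cardiomyocytes, with 85 UMIs there and 6 in the other types in Sham, and 55 and 1 in TAC. With 1 UMI in the comparison the TAC fold of 54.1 has an interval of 9.32 to 2176.

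**Figure D2:**
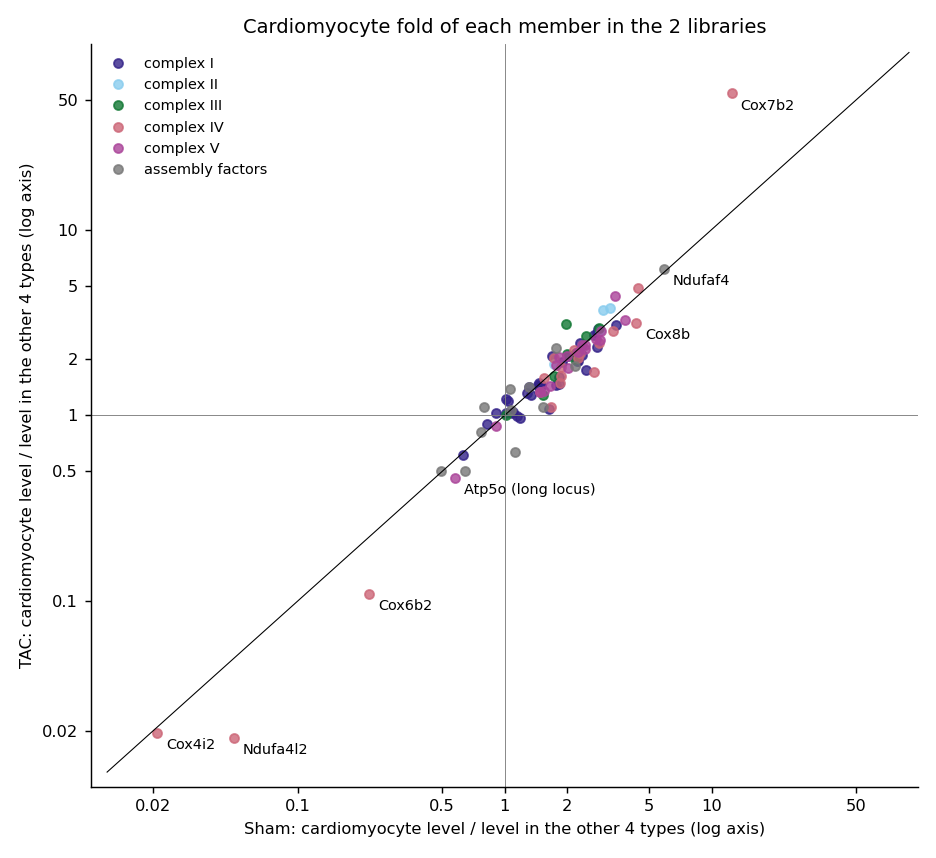
Each point is 1 member gene, placed by its level in cardiomyocytes over its level in the 4 other large types pooled, in Sham (horizontal, log axis) and TAC (vertical, log axis), with colour for the complex and a diagonal of equal fold. Most points lie between 1 and 5 on both axes, Cox7b2 lies far above (12.5 in Sham and 54.1 in TAC, the latter against 1 UMI), and Cox4i2 and Ndufa4l2 lie at the lower left.

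The core subunits of each complex are those that bind the redox centres or carry out catalysis. In cardiomyocytes the iron-sulphur subunit Ndufs1 of complex I was at 146 CPM in Sham and 154 in TAC, Ndufs3 at 90.4 and 92.5, and Ndufs7 at 45.9 and 47.1. The flavin-bearing Ndufv1, the NADH site of complex I, was at 109 and 82.9, and its neighbour Ndufv2 at 67.0 and 71.8. Ndufs8 was at 16.9 and 15.1. Of these 6 only Ndufv1 had an interval of the TAC to Sham ratio that left out 1, and its ratio was under 1, at 0.759 (0.701 to 0.821).

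In complex II, Sdha, the flavoprotein that oxidises succinate, was at 158 in Sham cardiomyocytes and 196 in TAC, and the iron-sulphur subunit Sdhb at 150 and 141. The membrane anchors Sdhc and Sdhd were at 109 and 121, and at 26.0 and 29.1. Only Sdha and Sdhc had intervals above 1, at ratios of 1.24 (1.17 to 1.31) and 1.11 (1.03 to 1.19). In complex III, Uqcrfs1, the Rieske iron-sulphur protein, was at 18.1 and 31.9, while the core proteins Uqcrc1 and Uqcrc2 were at 111 and 115, and at 99.6 and 114. Uqcrfs1 had the highest ratio among the members of the complex, 1.76 (1.501 to 2.07). Cyc1, the cytochrome c1 of complex III, is no member by its symbol and is not in the sums of the complex. It went the other way in cardiomyocytes, at 120 and 93.2, a ratio of 0.777 (0.720 to 0.837).

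In the catalytic head of the ATP synthase, the alpha subunit Atp5a1 was at 202 CPM in Sham cardiomyocytes and 285 in TAC, the beta subunit Atp5b at 224 and 233, and the gamma subunit Atp5c1 at 179 and 185. Alpha and beta are built into the head in equal number, yet their ratios differed, with 1.42 (1.35 to 1.49) for Atp5a1 and 1.04 (0.986 to 1.09) for Atp5b. The delta subunit of the central stalk, Atp5d, was at 127 and 89.5, a ratio of 0.703 (0.652 to 0.757). Atpif1, the inhibitor protein of the synthase, is no member by its symbol, and stood at 19.4 and 28.3, a ratio of 1.46 (1.24 to 1.71).

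Whether levels differed between the libraries was compared next, within each cell type. The summed members were higher in TAC in all 5 large types. The ratio of TAC to Sham was 1.15 (1.14 to 1.17) in cardiomyocytes, 1.30 (1.26 to 1.34) in macrophages, 1.248 (1.22 to 1.28) in fibroblasts, 1.15 (1.12 to 1.18) in endothelial cells and 1.17 (1.13 to 1.21) in pericytes. No ratio here can be set against a spread between hearts. In macrophages 67.1% of the difference came from 1 gene identifier, treated below, and without it the ratio was 1.11 (1.07 to 1.15) in macrophages, 1.20 (1.17 to 1.23) in fibroblasts and 1.14 (1.13 to 1.15) in cardiomyocytes.

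Complex IV had the highest ratio of the 5 complexes in cardiomyocytes, endothelial cells and pericytes, and in all 5 types once that identifier was left out. It was at 1004 CPM in Sham cardiomyocytes and 1251 in TAC, a ratio of 1.245 (1.22 to 1.27). The ratio was 1.33 in macrophages (1.22 to 1.45) and in fibroblasts (1.253 to 1.41), 1.248 (1.17 to 1.33) in endothelial cells and 1.38 (1.28 to 1.48) in pericytes. Complexes I, III and V, the latter without the identifier, were at 1.10, 1.16 and 1.10 in cardiomyocytes. Complex II had a ratio of 1.10 (1.06 to 1.14) in cardiomyocytes, and its interval held 1 in the other 4 types.

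**Figure D3:**
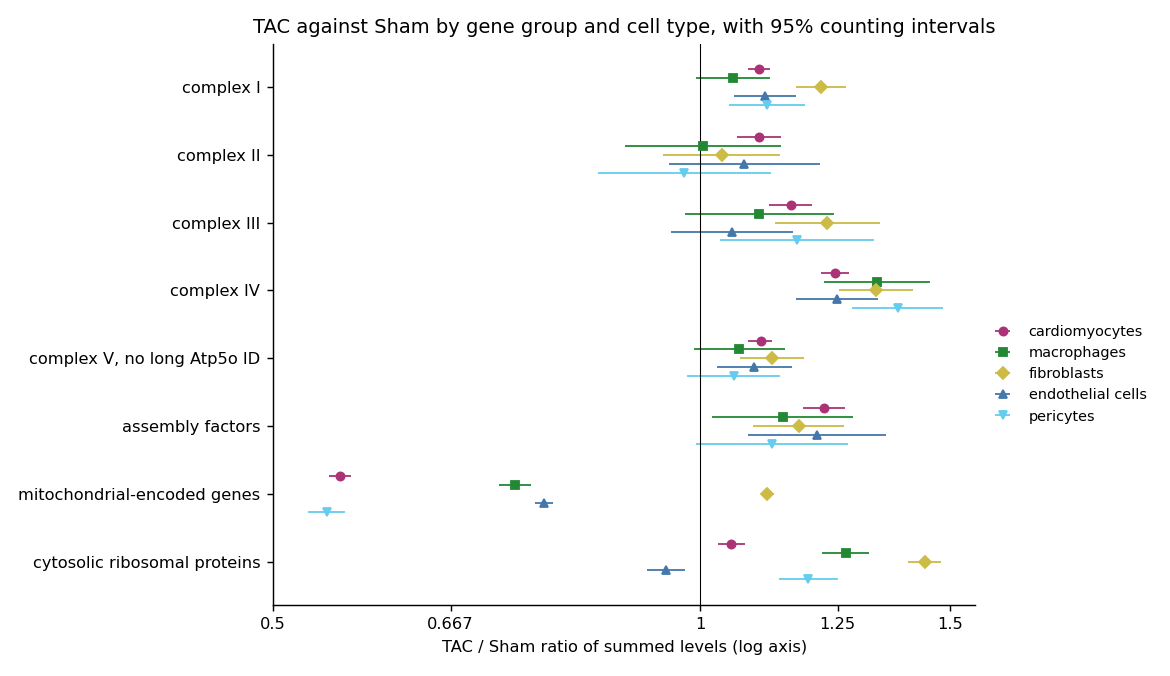
Ratio of the summed level in TAC to that in Sham (horizontal, log axis) for 8 gene groups, with 1 marker per cell type and bars for 95% counting intervals. Complex IV lies at 1.245 to 1.38 in every type, and the mitochondrial-encoded genes lie under 1 in every type but fibroblasts.

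The mitochondrial-encoded genes, ribosomal RNAs included, were lower in TAC in 4 of the 5 types as a sum, while the nuclear members were higher. The ratio of their sum was 0.558 (0.548 to 0.568) in cardiomyocytes, 0.545 in pericytes, 0.741 in macrophages and 0.776 in endothelial cells, and 1.12 (1.10 to 1.13) in fibroblasts. Of the 13 mitochondrial-encoded subunits 11 could be counted in cardiomyocytes, none was above 1, 5 were called lower against 5.91% of all genes, and their median ratio was 0.684. The median was 0.595 in pericytes, with 0 of 7 above 1, and 0.817 in endothelial cells, with 0 of 11 above 1. In macrophages it was 0.934, with 2 of 7 above 1 and 1 called lower, and in fibroblasts 1.05, with 7 of 11 above 1. The apocytochrome mt-Cytb was at 166 in Sham and 115 in TAC, and mt-Co1, the catalytic subunit of complex IV, at 106 and 67.9. The median share of mitochondrial-encoded UMIs per cardiomyocyte was 0.234% and 0.128%, so that these genes weigh little in the totals. Dissociation and mitochondrial RNA left outside cells were not measured, and their part in this difference was not tested.

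Other long lists moved as well, and are given for scale. Cytosolic ribosomal protein genes had summed ratios of 1.05 in cardiomyocytes, 1.27 in macrophages, 1.44 in fibroblasts, 0.946 in endothelial cells and 1.19 in pericytes. Malat1, a nuclear RNA, took 131063 CPM in Sham cardiomyocytes and 162452 in TAC, while the ribosomal protein genes together took 1272 and 1339. How much of the RNA of each cell was nuclear was not measured, and its part in the levels was not tested. With mitochondrial-encoded, ribosomal protein and Malat1 UMIs left out of the totals, the cardiomyocyte ratio of the members was 1.20.

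In cardiomyocytes 94 members had enough UMIs to be called. In TAC 9 (9.57%) were called higher, near the 10.1% of all 11255 genes, and 1 was called lower against 5.91%. The median ratio of the members was 1.13 and that of all genes 1.01, and 79 of the 94 were above 1. The counting interval lay above 1 for 46 members and below 1 for 4. Neither that count nor the count above 1 is given over all genes, so they describe the members alone. Within the members the difference was spread over many genes at small size, and the called members were few.

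The 9 called higher held subunits of complexes I, III, IV and V and 2 assembly factors. Uqcrfs1 is given above. Cox7c, a small subunit of complex IV, had 1014 UMIs in Sham and 1706 in TAC, which is 75.2 and 130 CPM and a ratio of 1.73 (1.60 to 1.87), and Cox8a, the form of subunit 8 found in most tissues, was at 51.4 and 80.1, a ratio of 1.56 (1.42 to 1.72). In complex I, the accessory subunits Ndufb2, Ndufb3 and Ndufa6 had ratios of 1.75 (1.47 to 2.08), 1.64 (1.49 to 1.81) and 1.54 (1.39 to 1.72). The assembly factors Sdhaf1 of complex II and Ndufaf5 of complex I had ratios of 1.59 (1.249 to 2.02) and 1.53 (1.26 to 1.86), the first on 116 UMIs in Sham and 179 in TAC. The ninth was the long identifier of Atp5o.
Cox7b2 was called lower, at 6.30 in Sham and 4.19 in TAC, a ratio of 0.665 (0.465 to 0.945) that lies at the limit of the call, and the call was lost under the alternatives named in the closing section.

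**Figure D4:**
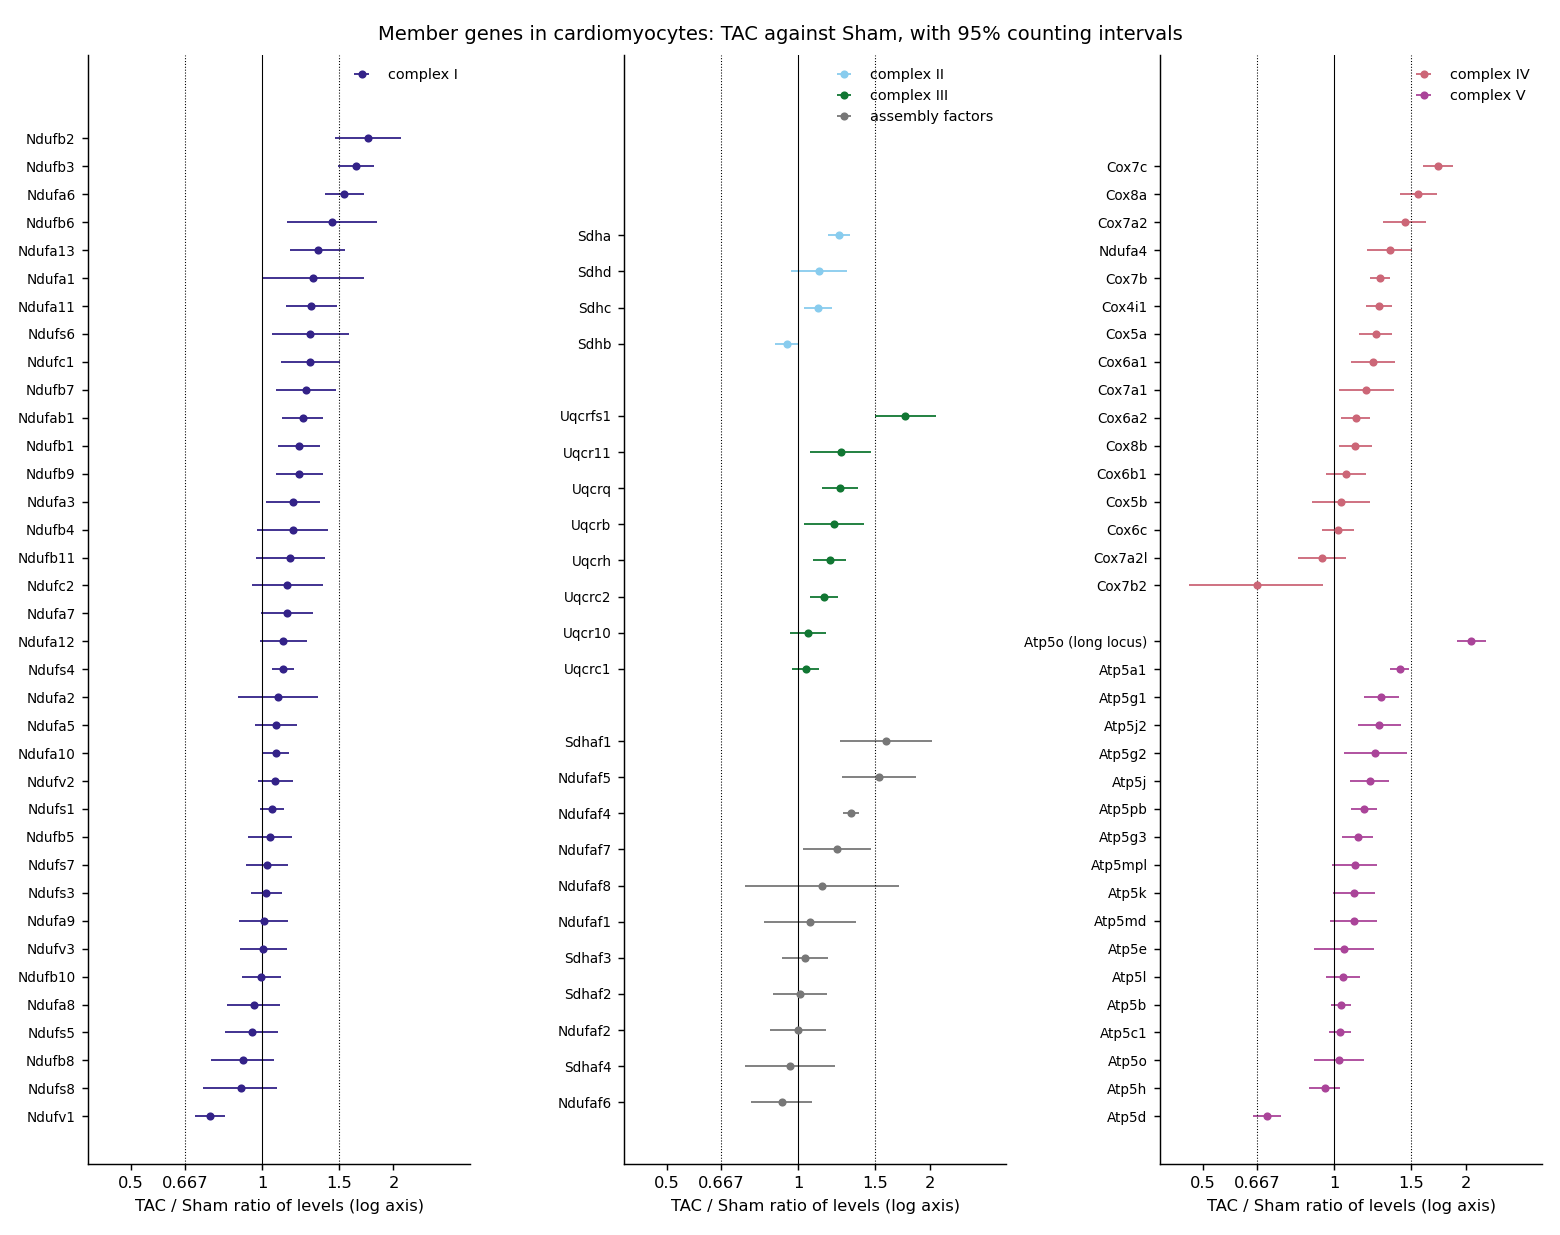
Ratio of TAC to Sham in cardiomyocytes (horizontal, log axis) for the members reported here that had at least 100 UMIs, ordered within each complex, with exact 95% counting intervals, a line at 1 and dotted lines at the fold of 1.5 in either direction. Most points lie between 1 and 1.5, the long locus of Atp5o is the highest at 2.06, and Cox7b2 and Atp5d are the lowest at 0.665 and 0.703.

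Atp5d, Ndufv1 and Cox7b2 were among the 4 members whose interval lay below 1 in cardiomyocytes. Of 48 members countable in all 5 large types, 20 had a ratio above 1 in each type and 3 a ratio below 1 in each, Atp5d and Ndufv1 among them. The same counts over all genes are not given here, so these are not read as particular to the members. Atp5d was at 65.3 and 42.7 in pericytes, a ratio of 0.653 (0.487 to 0.872), at 61.5 and 40.8 in endothelial cells, a ratio of 0.664 (0.522 to 0.845), and had ratios of 0.811 and 0.846 with intervals that held 1 in macrophages and fibroblasts. The types need not be independent here, since RNA of cardiomyocyte genes was counted in each of them. Its part in these ratios was not tested.

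In the other types a larger share of members than of all genes was called higher, most clearly in fibroblasts. In fibroblasts 18 of 85 members (21.2%) were called higher against 8.03% of all genes, and 0 lower against 3.31%, with a median ratio of 1.17 against 1.01. In macrophages 7 of 59 (11.9%) were called higher against 6.97%, and 0 lower against 6.73%. In endothelial cells 9 of 81 (11.1%) were called higher against 6.44% and 1 lower against 4.63%, and in pericytes 6 of 52 (11.5%) higher against 4.43% and 1 lower against 4.15%. The lower call was Atp5d in both endothelial cells and pericytes.

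Of the 18 fibroblast calls, 8 were among 35 countable members of complex I and 2 among 7 of complex III. Another 6 were among 14 of complex IV, and 2 among 18 of complex V. Ndufb2 was at 11.4 in Sham and 25.3 in TAC fibroblasts, a ratio of 2.21 (1.62 to 3.04), and Cox7c at 26.0 and 55.0, a ratio of 2.12 (1.72 to 2.61). The lowest ratios there were those of Ndufb5, 0.836, and Atp5d, 0.846, and both intervals held 1. Ribosomal protein genes had 31 of 76 called higher in the same cells.
Cox7c also had the highest pericyte ratio, with 53 UMIs in Sham and 140 in TAC, which is 28.9 and 72.8 CPM and a ratio of 2.52 (1.83 to 3.53). Cox8a had the highest macrophage ratio after the long identifier, at 14.9 and 31.6, or 2.11 (1.39 to 3.27). Cox7a1, the heart and muscle form of subunit 7a, had it in endothelial cells, at 17.7 and 29.7, or 1.67 (1.16 to 2.46).

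Short members had the larger ratios in some types. In cardiomyocytes the median ratio was 1.18 for the 28 members under 5 kb, 1.14 for 44 members of 5 to 15 kb, 1.07 for 17 members of 15 to 50 kb and 1.04 for 5 longer ones. Over all genes the same classes had 1.13, 0.990, 0.996 and 1.01. Under 5 kb, 4 of the 28 members were called higher in cardiomyocytes, and 270 of 1302 genes in all. In fibroblasts the members had 1.42, 1.22, 1.03 and 1.13 and all genes 1.21, 1.05, 1.002 and 0.976, whereas in pericytes the members had 1.13, 1.17, 1.09 and 1.26, with 3 genes in the last class. Whether intron reads were counted is not given in the sources used here, and the part of gene length in the ratios was not tested.

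Atp5o, which encodes the OSCP subunit that joins the stalk and head of the ATP synthase, is listed under 2 identifiers. ENSMUSG00000022956 spans 6474 bases at chr16:91925214-91931687 on the minus strand, by GENCODE M21 on GRCm38. ENSMUSG00000116933 spans 242585 bases at chr16:91684398-91926982 on the same strand and runs over Donson and Cryzl1, and over Itsn1 on the other strand. Reads of these genes could be counted to it, and whether counting used strand is not given in the sources used here.

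The long identifier had its highest level in macrophages, with 606 UMIs in Sham and 2154 in TAC, or 274 and 840 CPM, a ratio of 3.06 (2.80 to 3.35). In the other large types it was at 71.6 and 148 in cardiomyocytes, 118 and 266 in fibroblasts, 47.8 and 106 in endothelial cells, and 64.8 and 128 in pericytes. Its ratio was thus the highest or next to highest of all members in each type. The short identifier was at 25.8 and 17.9 in macrophages and at 34.4 and 35.3 in cardiomyocytes, so that the 2 did not move alike. Itsn1, an endocytic scaffold gene, was at 829 and 1240 in macrophages, and at 131 and 140 in cardiomyocytes. The long identifier is therefore uncertain as a measure of Atp5o, and the complex V sums are given with and without it.

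The tissue forms of complex IV were compared as the share of each pair's UMIs. UMIs count captured ends and were not divided by length, so a share is read across cell types and libraries and not as the ratio of the 2 proteins. Cox4i2, an alternative form of subunit 4 known from lung, smooth muscle and oxygen-sensing cells, was highest in pericytes here. It was at 144 CPM in Sham pericytes (264 UMIs) and 191 in TAC (367 UMIs), against 0.519 and 0.610 in cardiomyocytes, a fold of 277 (132 to 696) and 313 (157 to 730). With cell types taken from each cell's own markers the folds were 67.3 and 88.6. Its share of the pair with Cox4i1 was 68.9% and 73.7% in pericytes and 0.478% and 0.444% in cardiomyocytes.

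Ndufa4l2 was also highest in pericytes. This relative of the complex IV subunit Ndufa4 is known as a gene induced by hypoxia, and it stood at 82.2 in Sham pericytes (151 UMIs) and 129 in TAC (247 UMIs), against 0.816 and 0.457 in cardiomyocytes. The pericyte ratio of TAC to Sham was 1.56 (1.27 to 1.93), past the limit of a call, and that of Cox4i2 was 1.33 (1.13 to 1.56). In fibroblasts the gene was at 7.18 and 11.6. With types from each cell's own markers its fold over cardiomyocytes was 48.4 and 73.7, against 101 and 281 with clusters. It made up 87.8% and 83.7% of the pair with Ndufa4 in pericytes, 26.5% and 28.0% in fibroblasts, and 2.17% and 0.920% in cardiomyocytes.
Cells thinned to 1000 UMIs had a Cox4i2 UMI in 12.5% of Sham and 16.1% of TAC pericytes, and in 0.0404% and 0.0419% of cardiomyocytes. For Ndufa4l2 the shares were 8.00% and 11.4% of pericytes and 0.0807% and 0.0419% of cardiomyocytes. Before thinning they were 19.8% and 25.4% for Cox4i2 and 12.02% and 19.7% for Ndufa4l2 in pericytes, at a median depth of 1583 and 1700 UMIs, while cardiomyocytes had a median of 4510 and 4916. Thinning left out 190 and 88 pericytes, and 34 and 11 cardiomyocytes, that had fewer UMIs.
Smooth muscle cells, of which there were 50 and 43, had Cox4i2 at 78.6 and 92.2 on 10 and 9 UMIs, and their intervals overlapped those of pericytes. Its share of the pair there was 76.9% of 13 UMIs in Sham and 45.0% of 20 in TAC. Ndufa4l2 had 0 UMIs there in Sham and 6 in TAC. The TAC level was 61.5 CPM (22.6 to 134), an interval that overlapped that of TAC pericytes (113 to 146).

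**Figure D5:**
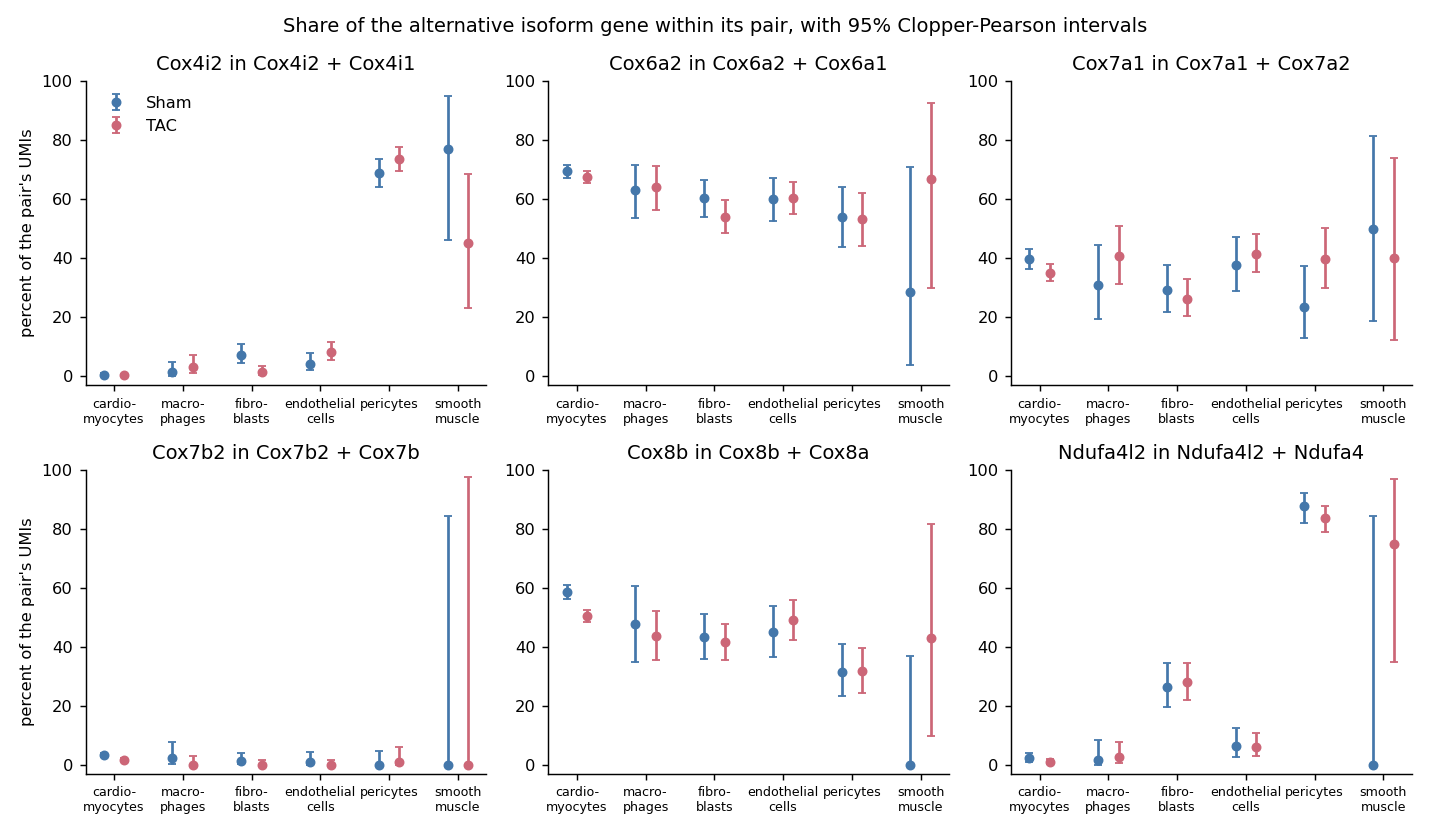
Percent of a pair's UMIs that fall on the first named gene (vertical) in 6 cell types, for 6 pairs of complex IV forms, with Sham and TAC points and exact Clopper-Pearson 95% intervals. Cox4i2 and Ndufa4l2 hold most of their pair in pericytes and little in cardiomyocytes, and the heart forms Cox6a2, Cox7a1 and Cox8b differ less between types.

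The heart and muscle forms differed less between cell types. Cox6a2 made up 69.4% (67.2% to 71.5%) of its pair with Cox6a1 in Sham cardiomyocytes and 67.4% (65.3% to 69.5%) in TAC, and 54.1% to 62.9% in the other types in Sham. Cox8b made up 58.7% (56.3% to 61.1%) of its pair with Cox8a in Sham cardiomyocytes and 50.5% (48.3% to 52.6%) in TAC, and the intervals did not overlap. Cox7a1 made up 39.8% (36.5% to 43.1%) of its pair with Cox7a2 in Sham and 35.0% (32.3% to 37.9%) in TAC, with overlapping intervals. In each of these 3 pairs the form found in most tissues had the larger TAC to Sham ratio in cardiomyocytes, and the heart form was also higher in TAC: 1.12 for Cox6a2, 1.19 for Cox7a1 and 1.12 for Cox8b.
These 3 heart forms stood in the other large types at 18.6% to 97.3% of their cardiomyocyte level, beside the 13.2% to 27.9% of Actc1 and Myl2. Cox7b2 was 3.27% of its pair with Cox7b in Sham cardiomyocytes and 1.73% in TAC. Cox7a2l, which takes part in joining complexes III and IV and has no partner here, was at 37.7 and 35.5 in cardiomyocytes, a ratio of 0.939 (0.827 to 1.07). Cox6b2, known as a testis form, had 70 UMIs in all. Its highest level among the 5 large types was 6.63 CPM, in TAC macrophages.

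Among members highest outside cardiomyocytes in both libraries, those with the largest fold after Cox4i2 and Ndufa4l2 were Cox6b2, the long Atp5o identifier and Ndufaf7. Ndufaf7, a methyltransferase that acts in the assembly of complex I, was at 43.1 in Sham and 55.7 in TAC fibroblasts against 17.1 and 20.97 in cardiomyocytes, a fold of 2.53 (2.10 to 3.04) and 2.66 (2.25 to 3.15). Of the 22 such members 11 were accessory or core subunits of complex I, which held 37 of all 98 members. In each library 14 of the 22 were highest in endothelial cells. Neither count is given over all genes. Some of the 22 were near ties with cardiomyocytes, such as Ndufc1 at folds of 1.16 (0.864 to 1.53) and 1.01 (0.798 to 1.28). Others had intervals above 1 in both libraries, such as Ndufa1 at 1.84 (1.21 to 2.73) and 1.64 (1.17 to 2.27).

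Within cardiomyocytes both clusters of a library were compared. In Sham the cluster led by Pdzrn4 and Fgf14 (1068 cells) held 5337 CPM of members and the other cluster (1443 cells) 5768. In TAC the cluster led by Pdzrn4 (1295 cells) held 6198 and the cluster led by Ankrd1 (1101 cells) 6714. Both TAC clusters were above both Sham clusters. Cells with a Nppa or Nppb UMI held 5275 in Sham and 6214 in TAC, and cells without 5599 and 6417.
Per cell, the median cardiomyocyte had 26 member UMIs in Sham and 32 in TAC, which was 56.2 and 64.1 per 10000, with quartiles of 46.6 to 68.5 and 53.6 to 77.1, so the cells of the libraries overlapped widely. No single cell gave over 0.391% of the cardiomyocyte member UMIs.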

How the data were processed

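Single-cell RNA was measured in 1 Sham and 1 TAC library of mouse heart. The authors deposited raw UMI counts per gene and barcode. By the file headers and the submitters' processing notes these came from Cell Ranger 7.1.0, while the study's methods name another version and another kit version than the labels. The genome build, the counting of introns, the use of strand and the filter on barcodes are not given in the sources used here. Per the labels the Sham mice were operated without constriction, whereas the series text calls its controls uninjured.

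Cells with at least 200 genes were kept, doublets called by Scrublet (0.8% per 1000 barcodes) were removed, and each library was clustered with scanpy 1.11.5 (2000 variable genes, 30 components, 15 neighbours, Leiden resolution 1) without the members and mitochondrial-encoded genes. A cluster was named where at least 3 markers of 1 type were at least 2-fold higher than elsewhere. Each such marker was seen in at least 10% of the cluster's cells. It stayed unnamed where another type had more markers among its 10 leading genes, or where 3 or more of these were cell cycle genes. Low depth without a marker of the type among the leading genes also left it unnamed. In all, 48 Sham and 24 TAC cells stayed unnamed. Raw counts were summed per type and divided by all UMIs of the type. Levels have exact Poisson intervals, ratios exact conditional binomial ones and shares Clopper-Pearson ones. With 1 library a condition there was no test, and a call is a fold of 1.5 at 100 or more UMIs. Calls and intervals were run on simulated Poisson counts, the model the intervals assume, with planted changes larger than the limit of a call. Such a run cannot speak to spread between hearts or cells, nor to changes as small as those of most members. Depth was 28146691 and 29108986 UMIs. The intervals speak to counting error alone, and with pooled hearts no spread between mice was measured.

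Gene coordinates came from GENCODE M21 on GRCm38, which held all 98 members and 94.1% of all rows, and 13 members overlapped a gene on their own strand. Promoters came from RefSeq. Named genes were the paired isoforms, the core subunits with the ATP synthase inhibitor, the 2 highest and 2 lowest ratios in each large type, and the 5 largest folds outside cardiomyocytes. Others were named after their values were seen. The members, lists and markers were chosen with earlier results of these data known. Alternatives covered filters, clustering, naming, totals, cardiomyocyte RNA in other types and the call limit. Results of some genes are not reported here.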

Additional observations from a re-analysis of the deposited data

How the results depend on the processing

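No paired analysis was possible because Sham and TAC were 1 library apiece, which also leaves no replicate to leave out. No summed ratio or fold changed its direction under the alternatives tried. Among single genes and complexes, 369 alternative values stayed within the counting interval of the reported value and 15 left it, and the cause was not tested. With no doublets removed, the ratio of the summed members was 1.24 in endothelial cells and 1.11 in pericytes, and the cardiomyocyte fold was 1.95 in Sham and 1.81 in TAC. With types from each cell's own markers the ratio was 1.196 in cardiomyocytes and 1.37 in macrophages, the fold was 1.86 and 1.82, and 0 members were called lower in TAC cardiomyocytes. With mitochondrial-encoded, ribosomal protein and Malat1 UMIs left out of the totals the cardiomyocyte ratio was 1.196, the fold 2.13 and 2.06, and 0 members were called lower. With at most 10% mitochondrial UMIs 0 were called lower. With the scaled subtraction of cardiomyocyte RNA the macrophage ratio was 1.41 and the fold 2.44 and 2.27. With calls made from a difference of 25% (the higher level against the lower) 25 members were called higher and 3 lower, and at 2-fold 1 and 0. Without the long Atp5o identifier, an alternative chosen after seeing the data, the ratio was 1.14 in cardiomyocytes, 1.11 in macrophages and 1.196 in fibroblasts, and the fold 2.08 and 2.03. Leaving out the assembly factors, also chosen after seeing the data, moved none of these values beyond its interval. Depth limits the single members outside cardiomyocytes, where 52 to 85 of 98 reached 100 UMIs.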

Other observations

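Genes that work beside the respiratory chain were compared in cardiomyocytes by lists chosen with earlier results known. Of 18 regulators of mitochondrial genes 0 were called higher and 0 lower, against 10.1% and 5.91% of all genes, and the median ratio of TAC to Sham was 0.926. Esrra, a nuclear receptor that acts on oxidative genes, was at 238 CPM in Sham and 159 in TAC, a ratio of 0.669 (0.633 to 0.707) just inside the limit of a call, and its relative Esrrb at 289 and 208. The coactivator Ppargc1a was at 480 and 558, a ratio of 1.16 (1.12 to 1.20). Of 13 carriers and transporters counted, a list that also held Cyc1, 1 was called in each direction, against the same 10.1% and 5.91% of all genes. Cycs, cytochrome c, had 467 and 738 UMIs and a ratio of 1.63 (1.45 to 1.83), and Ucp3, an uncoupling protein, had 877 and 544 UMIs and a ratio of 0.638 (0.572 to 0.711).

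The citrate cycle list likewise held 1 call in each direction among 14 genes, against 10.1% higher and 5.91% lower over all genes. Its median ratio was 0.976. Idh2, the mitochondrial NADP-dependent isocitrate dehydrogenase, was at 431 and 245 CPM, a ratio of 0.569 (0.544 to 0.594). Idh3b, a subunit of the NAD-dependent enzyme, was at 96.4 and 167, a ratio of 1.73 (1.62 to 1.86). Among 28 assembly and copper factors counted, 18 were above 1, a count not given over all genes. In that list 1 was called higher and 0 lower, against the same 10.1% and 5.91%. The call was Bcs1l, needed to insert the Rieske protein Uqcrfs1 into complex III, at 16.6 and 25.3 and a ratio of 1.52 (1.28 to 1.81).

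Cardiomyocytes with over 1% mitochondrial-encoded UMIs were few, with 47 cells in Sham and 16 in TAC, and had a median of 1374 and 1532 UMIs. They held 8595 and 18666 CPM of members. In smaller populations the ratio of the summed members was 1.31 (1.13 to 1.51) in smooth muscle cells, 1.21 (1.08 to 1.35) in lymphatic endothelial cells, 1.248 (1.01 to 1.54) in B cells and 1.40 (1.01 to 1.95) in Schwann cells. It was 0.982 (0.810 to 1.19) in T cells and 0.864 (0.683 to 1.10) in epicardial or mesothelial cells, and both of these intervals held 1. Each of these 6 populations had 11 to 110 cells per library.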
